A study of Arabidopsis thaliana with 8 samples.

Results

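Root-restricted genes of wild-type Arabidopsis thaliana were taken as the 150 genes with the most transcript in wt roots among those with little in the other wt organs, and were followed in clf-28 plants. A gene entered when its value was usable in all 8 libraries and stood below 1 FPKM (Cufflinks' fragment measure, corrected for transcript length and for the size of the library) in wt leaves, wt flowers and wt siliques. Of 34759 loci, 34319 had usable values throughout and 12288 of these met the 3 limits. The 150 highest in wt roots were kept, so the members were chosen by their wt values in the 4 organs and by none of the clf-28 values.

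All plants were of the Col-0 accession. Each of 4 organs, namely roots, leaves, flowers and siliques, gave 1 library from clf-28 and 1 from the wild type (wt). The allele clf-28 affects CURLY LEAF (CLF), and the labels name no other genotype. Roots and leaves came from 2-week-old seedlings on MS plates, with the leaf libraries made from the whole aerial part, while plants grown in soil for 5 weeks gave flowers and siliques. Days were long and the temperature was 22 °C. No group has a replicate, so no value carries a replicate error, no test was possible within an organ and differences are described by their size. An effect over the 4 organs was not tested, since wt values chose the members.

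CLF is the methyltransferase subunit of a Polycomb complex that places the repressive mark trimethylated lysine 27 on histone H3, and plants without it are known for switching on genes in the wrong organ, above all floral homeotic genes in leaves. Roots owe their particular transcripts to a few tissues. Root hairs and the outer cell layers make extensins, proline-rich wall proteins that class III peroxidases cross-link. The endodermis surrounds the vasculature with the Casparian strip, a lignin band laid down on a scaffold of CASP proteins, and with suberin, a polyester of fatty acids, glycerol and ferulate. Uptake of iron, zinc, nitrate and water rests on transporters of these same layers.

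The CLF locus itself (AT2G23380, chromosome 2, 9955553 to 9960359) stood at 7.84 FPKM in clf-28 roots and 17.2 in wt roots. It stood at 5.50 FPKM in clf-28 leaves and 6.57 in wt leaves, 14.7 in clf-28 flowers and 9.99 in wt flowers, and 15.1 in clf-28 siliques and 6.53 in wt siliques. One value per locus does not show whether a full transcript was made. Sums of FPKM ran from 656178 to 715547 over the 8 libraries. The number of reads in each is unknown. The deposited intervals around FPKM were wide. Their lower bound was 0 for 127 members in clf-28 roots and 124 in wt roots, and for 150 members in each of the other 6 libraries. The intervals of clf-28 and wt overlapped for every member in every organ. Among genes measured in roots they lay apart with clf-28 higher for 0.0304% and lower for 0.00507%. The shares were 0.054% and 0% for leaf genes, 0.0143% and 0.00478% for flower genes, and 0.196% and 0.00479% for silique genes.

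The members were root genes in clf-28 as well. In the 4 clf-28 libraries, which the choice did not use, 148 of 150 members had their highest value in roots, against 53.7% of all 5690 genes as high in wt roots as the lowest member. The exceptions were FACT and EDA4, both highest in clf-28 siliques. The 5690 genes were not chosen by the limits on the other wt organs, so the shares are not of like sets. Members stood at 25.5 FPKM or more in wt roots and below 1 FPKM in the other wt organs. Only a large difference between genotypes could thus move their highest organ. In clf-28, 105 members were below 1 FPKM in all 3 other organs, 37 reached it in 1 of these organs, 8 in 2 and 0 in 3. Of the 5827 genes at or above the same root level in clf-28 roots, 2.88% were below 1 FPKM in those 3 organs. The 5827 include 136 members, of which 94 were below it. Of the other 5691 genes 74 were, 1.3%. These others were not chosen by the wt limits either, so the contrast in part restates the choice.

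In roots the median member was at 52.0 FPKM in clf-28 and 45.0 in wt, and members spanned 12.3 to 798 FPKM in clf-28 and 25.5 to 853 in wt. Their values summed to 12165 FPKM in clf-28 roots, 1.77% of the FPKM listed there, and to 10199 in wt roots, 1.52%. Outside the root the medians were below 1 FPKM in both genotypes, at 0.325 in clf-28 leaves and 0.190 in wt leaves, 0.0685 in clf-28 flowers and 0.0610 in wt flowers, and 0.0679 in clf-28 siliques and 0.0397 in wt siliques. The highest member reached 4.66 FPKM in clf-28 leaves, 2.86 in clf-28 flowers and 149 in clf-28 siliques, whereas the limit of 1 FPKM holds for wt by construction. Members summed to 78.4 FPKM in clf-28 leaves and 44.7 in wt leaves, 34.0 in clf-28 flowers and 26.8 in wt flowers, and 341 in clf-28 siliques and 17.6 in wt siliques. The silique sum thus differed most, and a few members carried it.

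**Figure D1:**
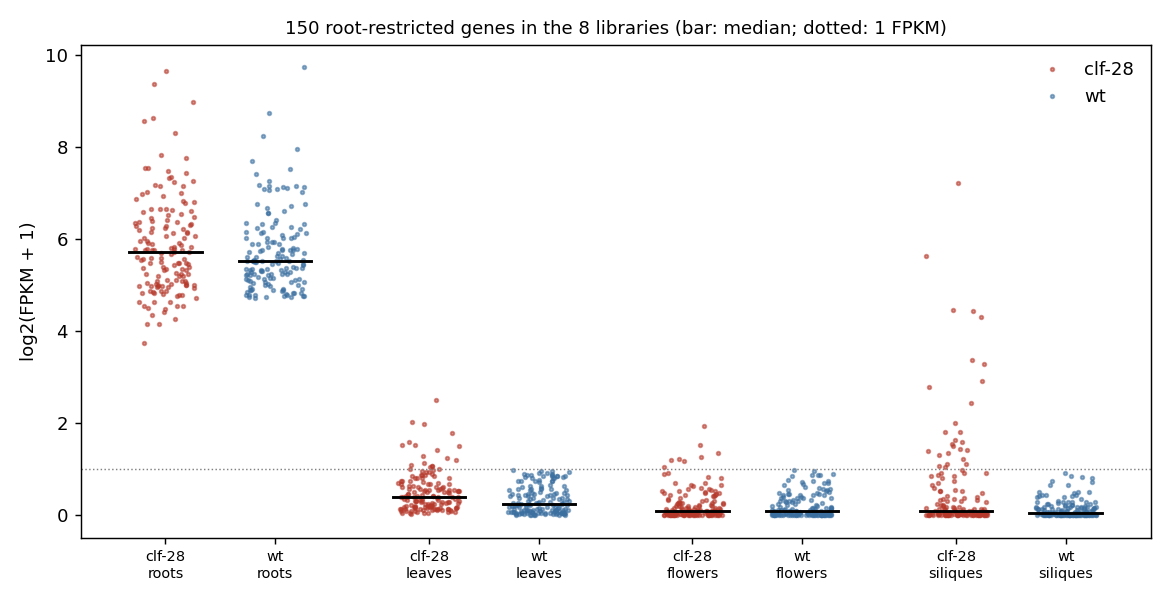
Each point is 1 of the 150 members in 1 library, as log2(FPKM + 1), with clf-28 left of wt for each organ, a bar at the median and a dotted line at 1 FPKM. Root values overlap between genotypes, and a tail of members up to 149 FPKM stands above the line in clf-28 siliques.

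Loss in clf-28 roots was limited to few members. On the log2(FPKM + 1) scale, 82 members were higher and 68 lower in clf-28 roots, with a median difference of 0.05, against -0.09 for all 19742 genes measured in roots and -0.12 for the 5690 genes as high in wt roots. The difference was within 1.5-fold for 116 members. At least 2-fold lower were 4 members, 2.67% (background 1.22% of measured genes, 1% of genes as high in wt roots). At least 2-fold higher were 10, 6.67% (background 5.55% and 3.29%). Without the members, the backgrounds were 1.2% and 0.957% lower, and 5.54% and 3.19% higher. Because wt root values chose the members, these counts are a description.

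The 4 lower members included a pair that acts in iron acquisition. CYP82C4 (AT4G31940, chromosome 4, 15451988 to 15454160), a cytochrome P450 that hydroxylates fraxetin to the iron-binding coumarin sideretin, had 12.3 FPKM in clf-28 roots and 58.9 in wt roots, a log2 difference of -2.17. FRU (AT2G28160, chromosome 2, 12004708 to 12006122), also known as FIT, the bHLH regulator of the iron deficiency response, had 16.8 FPKM in clf-28 roots and 39.3 in wt roots (-1.18). Both were below 1 FPKM in the other 6 libraries. The other lower members were AT3G01260, annotated as galactose mutarotase-like, with 18.3 FPKM in clf-28 roots and 44.3 in wt roots, and the TRAF-like AT3G20380, with 20.4 in clf-28 roots and 45.5 in wt roots. Next in order, short of 2-fold, came AT5G10130, an Ole e 1 and extensin family protein, at 22.5 FPKM in clf-28 roots and 39.7 in wt roots, and the glutathione transferase GSTL1, at 16.9 in clf-28 roots and 29.2 in wt roots. The pectin methylesterase inhibitor AT5G62340 had 41.1 FPKM in clf-28 roots and 68.2 in wt roots, and the peroxidase AT3G01190 had 153 in clf-28 roots and 249 in wt roots.

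The wider list of nutrient uptake held more genes that were lower. Among 27 such genes with a locus of their own, 2 are members (CYP82C4 and FRU). Of 24 measured in roots, 8 were at least 2-fold lower in clf-28 (background 1.22% of measured genes). At least 2-fold higher were 2 (background 5.55%), and the median log2 difference was -0.43. The 2 higher genes were HAK5, with 25.6 FPKM in clf-28 roots and 2.60 in wt roots, and COPT2, with 45.6 in clf-28 roots and 20.5 in wt roots. IRT1, the root iron transporter, had 159 FPKM in clf-28 roots and 373 in wt roots, and FRO2, the ferric chelate reductase, 35.3 in clf-28 roots and 149 in wt roots. Neither is a member, since IRT1 had 14.8 FPKM in clf-28 flowers and 16.5 in wt flowers, and FRO2 2.4 in clf-28 flowers and 3.93 in wt flowers. NRT1.5, which loads nitrate into the xylem, had 108 FPKM in clf-28 roots and 583 in wt roots. Of the members that carry metals, ZIP2 was higher, at 86.7 FPKM in clf-28 roots and 64.0 in wt roots, while ZIP3 had 25.6 in clf-28 roots and 35.1 in wt roots. IREG2, a vacuolar transporter of nickel and cobalt, had 27.4 FPKM in clf-28 roots and 40.0 in wt roots.

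The 10 members at least 2-fold higher in clf-28 roots were led by MSRB7 (AT4G21830, chromosome 4, 11584346 to 11585419), a methionine sulfoxide reductase that repairs oxidised proteins. It had 314 FPKM in clf-28 roots and 37.1 in wt roots, a log2 difference of 3.05. MDHAR (AT3G09940, chromosome 3, 3056375 to 3059148), a monodehydroascorbate reductase that regenerates ascorbate, had 162 FPKM in clf-28 roots and 27.5 in wt roots (2.52). These are 2 of the 4 redox members. AT5G23830, with an MD-2-related lipid recognition domain, had 215 FPKM in clf-28 roots and 42.6 in wt roots (2.31).

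The extensin-like AT1G26250 had 186 FPKM in clf-28 roots and 48.2 in wt roots (1.93), and BGLU22, a beta-glucosidase of root endoplasmic reticulum bodies, 661 in clf-28 roots and 205 in wt roots (1.68). TIP2;3, a tonoplast aquaporin, had 393 FPKM in clf-28 roots and 136 in wt roots (1.53). AT5G37990, of the methyltransferase superfamily, followed with 77.5 FPKM in clf-28 roots and 26.3 in wt roots (1.52). The defensin-like AT4G22212 stood at 186 FPKM in clf-28 roots and 79.9 in wt roots. The alpha/beta-hydrolase AT5G06570 had 80.7 FPKM in clf-28 roots and 39.2 in wt roots. All 10 were also higher in clf-28 leaves, as were 123 of the 150 members, and 6 of the 10 were at 1 FPKM or more there.

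Stress lists moved in the same root libraries. All 9 measured jasmonate response genes and 6 of 8 measured cold and ABA response genes were at least 2-fold higher in clf-28 roots, with 1 of the 8 at least 2-fold lower, and the jasmonate list summed to 747 FPKM in clf-28 roots and 116 in wt roots. Among 8 measured genes of endoplasmic reticulum bodies, which jasmonate is known to induce, 4 were at least 2-fold higher, with a median log2 difference of 1.01. Of the 10 genes of the root triterpene clusters, 8 were at least 2-fold higher (median 2.84), though none is a member. Genes of green tissue summed to 124 FPKM in clf-28 roots and 329 in wt roots, 9 of 10 at least 2-fold lower. Seed storage genes summed to 0.185 FPKM in clf-28 roots and 51.2 in wt roots, 8 of 8 measured at least 2-fold lower. The part of stress state, and of shoot or seed material in the wt roots, in the members' differences was not tested. In whole organs, fewer cells of a type cannot be told apart from less RNA per cell.

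**Figure D2:**
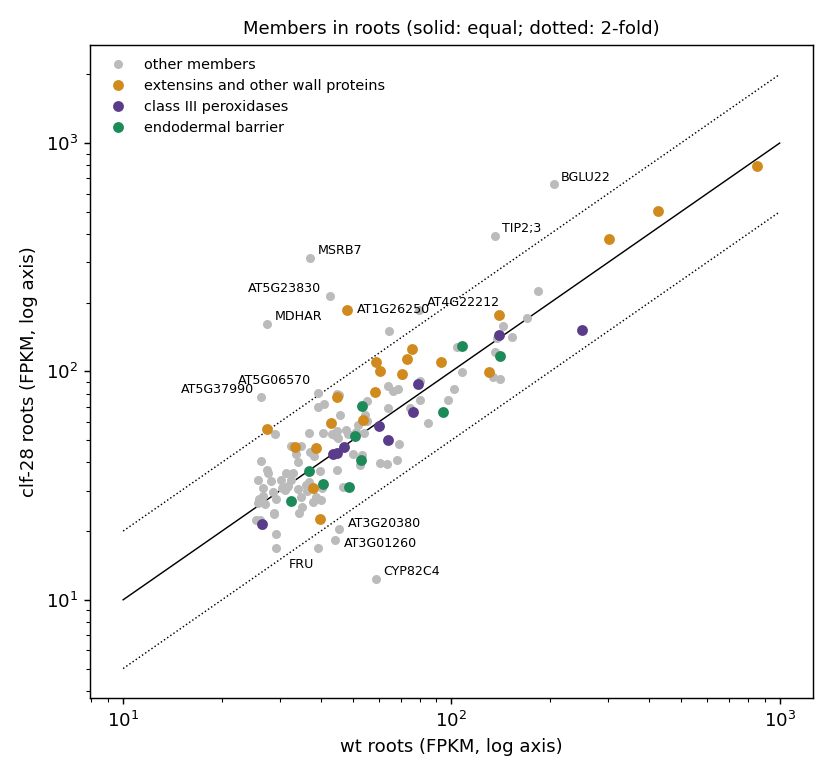
Each point is a member, with FPKM in wt roots on the horizontal and in clf-28 roots on the vertical axis, both log axes, coloured by role, and with names for 13 of the 14 members at least 2-fold apart on the log2(FPKM + 1) scale. Most members lie near the solid line of equal values, and MSRB7 and CYP82C4 lie farthest above and below it.

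By role, extensins and other structural wall proteins were the largest group, with 21 members, and held the 3 highest members of all. Roles were assigned from the annotation after values were known. AT3G28550 (chromosome 3, 10700707 to 10703929) had 798 FPKM in clf-28 roots and 853 in wt roots, AT3G54580 504 in clf-28 roots and 425 in wt roots, and HRGP1 380 in clf-28 roots and 303 in wt roots. The group had a median log2 difference of 0.46 in roots, with 17 of 21 members higher in clf-28, where any rise was seen in 37.6% of measured genes and 34.2% of genes as high in wt roots. AT1G26250 alone was at least 2-fold higher on the log2(FPKM + 1) scale. PRP1 had 55.7 FPKM in clf-28 roots and 27.4 in wt roots, just short on that scale (0.9997). EXT10 had 110 FPKM in clf-28 roots and 58.8 in wt roots. EXT12 had 125 FPKM in clf-28 roots and 76.0 in wt roots, and LRX1, a wall protein of root hairs, 46.1 in clf-28 roots and 38.7 in wt roots. AGP30, an arabinogalactan protein, went the other way, with 99.4 FPKM in clf-28 roots and 130 in wt roots. Extensins are repetitive and close to one another in sequence, so reads may be shared between copies and single values are uncertain.

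The stretches before the transcription starts of the 3 highest extensins are shown because they hold nearly the same 20 bases, given in capitals. They are the 250 bases upstream of the RefSeq gene start, on assembly TAIR10.1, in the direction of transcription. AT3G28550 lies on the minus strand (chr3:10704019-10704268), AT3G54580 on the minus strand (chr3:20203920-20204169) and HRGP1 on the plus strand (chr3:20205878-20206127).
AT3G28550: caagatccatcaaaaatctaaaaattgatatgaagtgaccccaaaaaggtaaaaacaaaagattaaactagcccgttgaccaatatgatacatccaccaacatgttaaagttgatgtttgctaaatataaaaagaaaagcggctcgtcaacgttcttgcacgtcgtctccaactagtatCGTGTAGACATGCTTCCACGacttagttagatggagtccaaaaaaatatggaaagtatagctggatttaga
AT3G54580: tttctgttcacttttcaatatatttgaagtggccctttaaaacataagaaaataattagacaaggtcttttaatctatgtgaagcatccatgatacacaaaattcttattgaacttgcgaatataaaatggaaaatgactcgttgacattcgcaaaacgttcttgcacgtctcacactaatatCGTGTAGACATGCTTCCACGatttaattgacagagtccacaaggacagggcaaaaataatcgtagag
HRGP1: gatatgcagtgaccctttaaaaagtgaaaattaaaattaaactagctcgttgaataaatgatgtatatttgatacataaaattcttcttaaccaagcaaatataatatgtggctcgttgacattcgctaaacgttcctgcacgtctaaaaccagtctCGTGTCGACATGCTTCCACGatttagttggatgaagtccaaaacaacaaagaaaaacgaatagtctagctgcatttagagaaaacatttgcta
Within the capitals lie a pair of matches, on opposite strands and facing away from each other, to a relaxed core of the root hair element, which is TG followed by CACG with 4 or 5 bases of any kind between them, searched on both strands. This core was chosen after these promoters had been seen. It occurred in 15 of 19 extensin and wall protein promoters (78.9%), in 30 of the 144 members' promoters that could be read (20.8%) and in 9.02% of the 27437 protein-coding promoters of the genome. The longest run shared by the 3, GACATGCTTCCACGA, is 15 bases long and was found in no other of those promoters. It spans positions -65 to -51 before AT3G28550, -61 to -47 before AT3G54580 and -87 to -73 before HRGP1. AT3G54580 and HRGP1 are neighbours, and a match in a promoter is a description, not a binding site.

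The next roles lay closer to equality in roots by their medians. Of 10 class III peroxidases, 2 were higher and 8 lower in clf-28 roots, with a median log2 difference of -0.05 and none past 2-fold. AT3G01190, the highest of them, is given above, and the next, AT5G17820, had 144 FPKM in clf-28 roots and 140 in wt roots. RHS19, a root hair peroxidase, had 43.6 FPKM in both. The 6 lipid-transfer-type proteins were all higher in clf-28, by 0.02 to 0.78 log2 units, with AT5G46890 at 226 FPKM in clf-28 roots and 184 in wt roots and its neighbour AT5G46900 at 172 in clf-28 roots and 169 in wt roots. The 8 lectins and beta-glucosidases had a median of -0.19 despite BGLU22, with the lectin AT1G52070 at 159 FPKM in clf-28 roots and 144 in wt roots.

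The 10 endodermal barrier members had a median log2 difference of -0.26 in roots, with 3 higher and 7 lower and none past 2-fold. CASP1 (AT2G36100, chromosome 2, 15158427 to 15160750), a scaffold protein of the Casparian strip, had 117 FPKM in clf-28 roots and 141 in wt roots. CYP86A1, the hydroxylase that makes root suberin acids, had 52.0 FPKM in clf-28 roots and 50.7 in wt roots. LAC3, a laccase, had 31.2 in clf-28 roots and 48.9 in wt roots.

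The 14 transcription factors among the members had a median of -0.02 in roots, 6 higher and 8 lower. AGL21, a MADS protein of lateral roots, had 37.1 FPKM in clf-28 roots and 27.5 in wt roots, and LRL3, a bHLH protein of root hairs, 26.4 in clf-28 roots and 27.1 in wt roots. WRKY36 had 53.3 FPKM in clf-28 roots and 48.4 in wt roots. In a list of 20 transcription factors of roots, which shares AGL21 with the members, 3 were at least 2-fold higher in clf-28 roots and 0 lower, with a median of -0.25. Of the 10 transporters and channels, 4 were higher and 6 lower (median -0.19). EIR1, the auxin efflux carrier also called PIN2, had 48.1 FPKM in clf-28 roots and 69.5 in wt roots, and the potassium and proton exchanger CHX17 had 53.9 in clf-28 roots and 54.2 in wt roots. Of 8 root aquaporins measured, TIP2;3 alone was at least 2-fold higher in clf-28 roots, and NLM1, the other member among them, had 74.7 FPKM in clf-28 roots and 97.4 in wt roots.

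In leaves, members were higher in clf-28 more often than not, but by small amounts. A count of 123 were higher and 27 lower, with a median log2 difference of 0.11. Any rise was seen in 34.4% of 16584 genes below 1 FPKM in wt leaves, and in 77.4% of the 221 of them as high in wt roots as the members. The 221 hold the members themselves and 71 other genes. A rise was seen in 67.6% of these others, against 82% of the members. A gene at 0 in both libraries cannot rise, and no member was listed at 0 in either leaf library. At 1 FPKM or more in clf-28 leaves were 18 members, 12% (background 3.71%, and 14.5% among the 221), against 14 of the 71 others, 19.7%. At least 2-fold higher on the log2(FPKM + 1) scale were 6 members, 4% (background 1.44% and 5.43%), against 8.45% of the others.

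The highest leaf value belonged to AT1G02360 (chromosome 1, 471990 to 473160), a chitinase family protein, with 4.66 FPKM in clf-28 leaves and 0.911 in wt leaves. It had 53.5 FPKM in clf-28 roots and 40.5 in wt roots, 0.0398 in clf-28 flowers and 0.0706 in wt flowers, and 0.129 in clf-28 siliques and 0.0264 in wt siliques. The AP2-type factor gene tny (AT5G25810, TINY) had 3.1 FPKM in clf-28 leaves and 0.903 in wt leaves, with 31.6 in clf-28 roots and 36.4 in wt roots. These are the only members above 5% of their own root level in clf-28 leaves, at 8.71% and 9.80%, while the choice itself holds every member below 5% in wt leaves. BGLU22 had 2.95 FPKM in clf-28 leaves and 0.829 in wt leaves, and MDHAR 2.47 in clf-28 leaves and 0.172 in wt leaves. AT3G28550 had 1.87 FPKM in clf-28 leaves and 0.349 in wt leaves, and MSRB7 had 1.29 in clf-28 leaves and 0.0208 in wt leaves. BGLU22, MDHAR and MSRB7 were also among those at least 2-fold higher in clf-28 roots. CHX17 had 2.02 FPKM in clf-28 leaves and 0.970 in wt leaves, short of 2-fold on the log2(FPKM + 1) scale (0.62).

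Of the wall proteins, all 21 had a higher value in clf-28 leaves than in wt leaves, although only AT3G28550 by 2-fold on the log2(FPKM + 1) scale. In FPKM itself others rose by more than 2-fold. AT3G54580 had 1.12 FPKM in clf-28 leaves and 0.214 in wt leaves, and EXT13 had 0.346 in clf-28 leaves and 0.0462 in wt leaves. Taken as a percent of the root level in the same genotype, the 21 stood at a median of 0.196% in clf-28 leaves (0.0651% to 0.475%) and 0.0520% in wt leaves (0.00789% to 0.200%). The same measure over all 150 members had a median of 0.519% in clf-28 leaves and 0.394% in wt leaves. For the endodermal barrier members it was 0.889% in clf-28 leaves and 0.833% in wt leaves, with 5 of 10 higher in clf-28. Transporters stood at 0.683% in clf-28 leaves and 0.719% in wt leaves. The root hair list, which holds 6 members among 21 genes, summed to 6.20 FPKM in clf-28 leaves and 3.1 in wt leaves. The jasmonate list summed to 508 FPKM in clf-28 leaves and 45.2 in wt leaves, with 9 of 9 genes at least 2-fold higher (background 5.45% of genes measured in leaves, with 1.43% lower). The part of stress state in the leaf values was not tested, nor was that of root tissue carried with the aerial part, which would add a share of the root level.

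**Figure D3:**
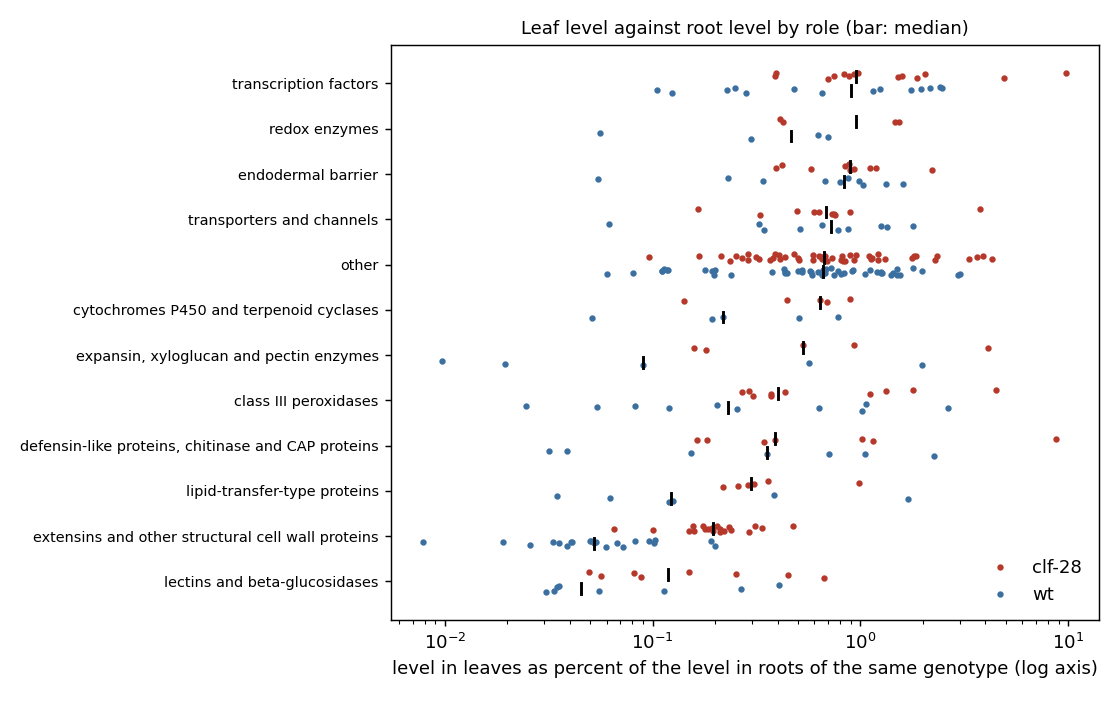
Points are members by role, with the level in leaves as a percent of the level in roots of the same genotype on a log axis, clf-28 above wt, and a bar at each median. The 21 extensins and other wall proteins lie at a median of 0.196% in clf-28 and 0.0520% in wt, and the endodermal barrier members at 0.889% in clf-28 and 0.833% in wt.

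Flowers held the fewest gains. There 73 members were higher and 68 lower in clf-28, with a median log2 difference of 0. Any rise was seen in 30.8% of genes below 1 FPKM in wt flowers, and in 57.7% of those as high in wt roots. Without the members the latter share was 66.7%, against 48.7% of the members. At 1 FPKM or more in clf-28 flowers were 8 members (background 2.84% of 13941 genes below 1 FPKM in wt flowers, 9.33% of the 300 of them as high in wt roots). The 300 include the members, and of the other 150 genes 20 reached 1 FPKM, 13.3% against 5.33% of the members. At least 2-fold higher on the log2(FPKM + 1) scale were 2 members (background 0.495% and 3%), against 4.67% of the other 150. AT3G59370, annotated as vacuolar calcium-binding protein-like, had 2.86 FPKM in clf-28 flowers and 0.506 in wt flowers, with 31.2 in clf-28 roots and 31.5 in wt roots. The bHLH factor AT5G51780 had 1.31 FPKM in clf-28 flowers and 0.0602 in wt flowers, with 69.7 in clf-28 roots and 39.2 in wt roots. The others at this level were all short of 2-fold on the log2(FPKM + 1) scale. They included the peroxidase AT4G36430, with 1.88 FPKM in clf-28 flowers and 0.829 in wt flowers (0.65 on that scale). The lipid-transfer-type AT4G12510 had 1.57 FPKM in clf-28 flowers and 0.689 in wt flowers (0.61). AT4G33610, a glycine-rich protein, had 1.42 FPKM in clf-28 flowers and 0.837 in wt flowers, and the merged beta-glucosidase locus AT1G51470,AT1G51490 had 1.33 in clf-28 flowers and 0.846 in wt flowers.

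Siliques gave the largest gains. At 1 FPKM or more in clf-28 siliques were 27 members, 18% (background 9.16% of 14942 genes below 1 FPKM in wt siliques, 33% of the 327 of them as high in wt roots). At least 2-fold higher on the log2(FPKM + 1) scale were 22, 14.7% (background 5.82% and 26%). The 327 include the members, and of the other 177 genes 45.8% reached 1 FPKM and 35.6% were at least 2-fold higher. Each of these others was at 1 FPKM or more in wt leaves or wt flowers, which no member was. Over all members 93 were higher and 41 lower, with a median log2 difference of 0.02, so the gain concerned a minority. Any rise was seen in 39.4% of genes below 1 FPKM in wt siliques, and in 74.3% of those as high in wt roots. Without the members the latter share was 84.7%, against 62% of the members. In clf-28 siliques 17 members exceeded 5% of their root level and 9 exceeded 10%, while the choice itself holds every member below these shares in wt siliques. On the log2(FPKM + 1) scale none of the 22 was past 2-fold in clf-28 roots, leaves or flowers. Their root differences ran from -0.63 to 0.81 on that scale. Of the 22, 13 were higher in clf-28 roots, 15 in clf-28 leaves and 11 in clf-28 flowers. In FPKM itself SDR3, 1 of the 22, had 1.67 in clf-28 leaves and 0.762 in wt leaves.

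The highest value in clf-28 siliques belonged to FACT (AT5G63560, chromosome 5, 25449403 to 25451414), which joins caffeic acid to fatty alcohols in root waxes. It had 149 FPKM in clf-28 siliques and 0.423 in wt siliques, a log2 difference of 6.72. The deposited interval was 0 to 298 FPKM in clf-28 siliques and 0 to 1.25 in wt siliques. Its other values were 70.5 FPKM in clf-28 roots and 53.6 in wt roots, 0.839 in clf-28 leaves and 0.861 in wt leaves, and 0.150 in clf-28 flowers and 0.414 in wt flowers. Its level in clf-28 siliques was 211% of that in clf-28 roots. EDA4 (AT2G48140, chromosome 2, 19686409 to 19687664), of the lipid-transfer protein family, had 48.7 FPKM in clf-28 siliques and 0.330 in wt siliques, with 42.5 in clf-28 roots and 38.2 in wt roots. That is 114% of the root level. CYP86A1 had 9.38 FPKM in clf-28 siliques and 0.646 in wt siliques, and LAC3 8.82 in clf-28 siliques and 0.0573 in wt siliques.

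The upstream stretches of FACT (chr5:25449061-25449310, plus strand) and EDA4 (chr2:19686083-19686332, plus strand) are shown as those of the only members that were higher in clf-28 siliques than in clf-28 roots. They are 250 bases long, from RefSeq on TAIR10.1, and hold no match to the motifs searched, so nothing is in capitals.
FACT: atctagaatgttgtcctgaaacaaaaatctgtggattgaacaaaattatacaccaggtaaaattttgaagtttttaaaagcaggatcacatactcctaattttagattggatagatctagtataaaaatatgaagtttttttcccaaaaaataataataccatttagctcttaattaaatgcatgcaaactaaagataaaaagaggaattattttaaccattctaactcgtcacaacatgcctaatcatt
EDA4: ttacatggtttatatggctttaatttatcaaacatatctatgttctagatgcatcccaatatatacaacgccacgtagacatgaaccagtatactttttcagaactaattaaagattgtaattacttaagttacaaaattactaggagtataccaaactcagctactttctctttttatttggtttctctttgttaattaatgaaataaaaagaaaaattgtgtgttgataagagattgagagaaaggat
The telobox AAACCCTA, searched on both strands, occurred in 0 of 20 promoters of members at least 2-fold higher in clf-28 siliques, in 2 of the 144 members' promoters (1.39%) and in 4.49% of all 27437. An AC element, searched as the letters ACCTACC, in the second known version as ACCAACC, or in the third known version as ACCTAAC, occurred in 0 of the 20, in 11 of 144 members (7.64%) and in 6.12% of all. The relaxed root hair core occurred in 2 of the 20 (10%). No match says only that these letters are not in the windows searched.

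Other members with silique gains were GulLO2, an oxidase of the gulonolactone oxidase family, with 20.9 FPKM in clf-28 siliques and 0.0082 in wt siliques, and AT3G06390, a CASP-like protein, with 20.6 in clf-28 siliques and 0.0314 in wt siliques. The merged locus AT3G51642,AT3G51644, of unknown function, had 18.8 FPKM in clf-28 siliques and 0.0143 in wt siliques. The glycine-rich AT4G33610 had 6.57 FPKM in clf-28 siliques and 0.745 in wt siliques. Of a pair of neighbours annotated as HR-like lesion-inducing proteins, AT3G23175 had 5.88 FPKM in clf-28 siliques and 0.159 in wt siliques, and AT3G23180 4.44 in clf-28 siliques and 0.0907 in wt siliques. In the endodermal barrier group 5 of 10 members were at least 2-fold higher on the log2(FPKM + 1) scale. They included FACT, AT3G06390, CYP86A1 and LAC3. CASP1 had 0.00792 FPKM in clf-28 siliques and 0.00794 in wt siliques. The remaining gains included a lectin (AT2G25980, 3.01 FPKM in clf-28 siliques and 0.356 in wt siliques), the mechanosensitive channel MSL9 (1.93 FPKM in clf-28 siliques and 0.0914 in wt siliques) and the AT-hook protein AHL19 (1.65 FPKM in clf-28 siliques and 0.144 in wt siliques). On the log2(FPKM + 1) scale none of the 21 wall proteins and none of the 10 peroxidases was past 2-fold in siliques. Of the 21, 15 had a higher value in clf-28 siliques. AGP3 was just short of 2-fold (0.99), with 1.16 FPKM in clf-28 siliques and 0.0840 in wt siliques. AT5G10130 (0.83) had 0.818 FPKM in clf-28 siliques and 0.0206 in wt siliques.

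The gain went beyond the members. Of 19 Casparian strip and suberin genes, 3 of which are members, 12 of 15 measured in siliques were at least 2-fold higher in clf-28 and 1 at least 2-fold lower (background 11.4% and 8% of genes measured in siliques), with a median log2 difference of 2.44. CYP86B1, which hydroxylates very-long-chain fatty acids for suberin, had 91.7 FPKM in clf-28 siliques and 2.17 in wt siliques. ASFT, the feruloyl transferase of suberin, had 87.8 in clf-28 siliques and 5.73 in wt siliques, and FAR4, a fatty alcohol-forming reductase, 23.1 in clf-28 siliques and 0.265 in wt siliques. PER64, the Casparian strip peroxidase, was the lower one on the log2(FPKM + 1) scale, with 111 FPKM in clf-28 siliques and 429 in wt siliques. CASP2 was short of 2-fold on that scale (-0.92), with 0.722 FPKM in clf-28 siliques and 2.26 in wt siliques. In roots 1 of the 19 was at least 2-fold higher and 0 lower.

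Markers of seed maturation moved with the silique result. Of 10 seed storage genes, 6 lacked a usable value in clf-28 siliques. The other 4 summed to 16230 FPKM in clf-28 siliques and 4.56 in wt siliques, and 4 of 4 were at least 2-fold higher. Of 10 genes of green tissue, 8 had usable values in both silique libraries, and 8 of these 8 were at least 2-fold lower, with a sum of 5414 FPKM in clf-28 siliques and 16988 in wt siliques. Anther and pollen genes summed to 22.9 FPKM in clf-28 siliques and 37.9 in wt siliques. Seed coats are known to make suberin as seeds mature. Siliques of different age and an effect of clf-28 at a given age cannot be told apart with 1 library each, and the part of age in the gains was not tested.

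**Figure D4:**
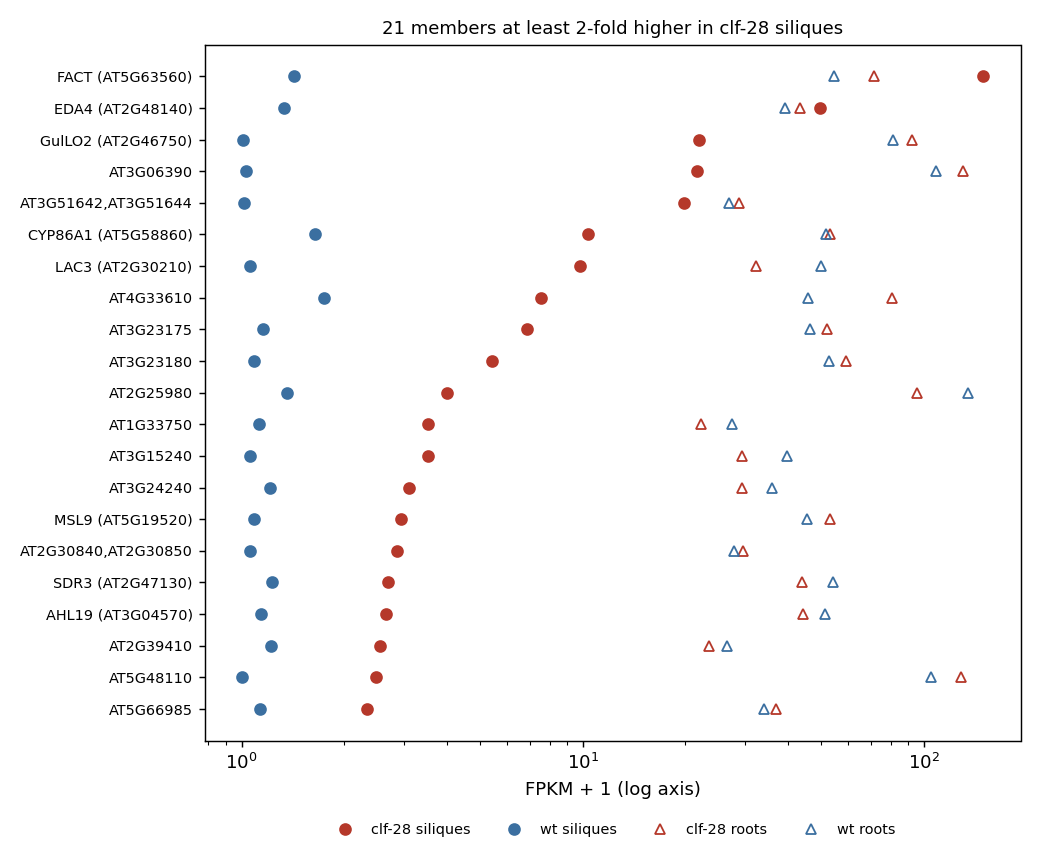
Members at least 2-fold higher in clf-28 siliques, 21 of the 22, with FPKM + 1 on a log axis, filled circles for siliques and open triangles for roots. FACT and EDA4 are higher in clf-28 siliques than in clf-28 roots. For the 21 shown, the root values of the genotypes lie within 2-fold of each other on the log2(FPKM + 1) scale.

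The choice of the genotype that defines root restriction set part of the picture. The same rule applied to the clf-28 columns gave another 150 genes, of which 88 were shared, 58.7% of either list. Of the 62 members missing from it, 45 were at 1 FPKM or more in a clf-28 organ other than roots and 17 lay past the last place. In roots the clf-28 list had a median log2 difference of 0.36, with 2 genes at least 2-fold lower and 40 at least 2-fold higher in clf-28, where the members had 4 and 10. Choosing on a genotype favours genes whose root value is high in it, so the clf-28 list is tilted towards higher clf-28 root values and the members towards lower ones. In leaves 125 genes of the clf-28 list were higher and 25 lower in clf-28, although its choice holds clf-28 leaves below 1 FPKM. In flowers 78 were higher and 62 lower, and in siliques 89 were higher and 44 lower. On the log2(FPKM + 1) scale, its limits on the clf-28 organs allow no gene of that list to be 2-fold higher there. On that scale 1 was at least 2-fold lower in each of the 3 organs. The limits do not forbid such a rise in FPKM itself, as in GLP9, with 0.534 in clf-28 leaves and 0.0625 in wt leaves.

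The members lay on all 5 chromosomes, with 29, 20, 30, 27 and 44 on chromosomes 1 to 5, that is 19.3%, 13.3%, 20%, 18% and 29.3%, where all loci divide as 25%, 16.4%, 20.1%, 15.3% and 22.5%. With at most 1 locus between neighbours, 18 members formed 8 runs of 2 or 3, and in 6 runs all genes shared a role. They include the peroxidases AT1G05240 and AT1G05250, the lectins AT1G52050, AT1G52060 and AT1G52070, the extensins AT3G54580 and HRGP1 and again AT5G06630 and EXT10, the lipid-transfer-type AT5G46890 and AT5G46900, and the lesion-inducing AT3G23175, AT3G23180 and AT3G23190. Such neighbouring copies can share reads. The peroxidase pair had 46.6 and 43.8 FPKM in clf-28 roots and 47.2 and 44.7 in wt roots.

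At the edge of the choice, AT1G64590 and AT5G04960 at 25.8 FPKM each and AT2G39410 at 25.5 were the last members by wt root level. The first 3 genes past it were the peroxidase AT2G35380 at 25.5, the MADS gene AGL17 at 25.3 and CYP702A5 at 25.1 FPKM in wt roots. AGL17, known as a root gene that promotes flowering, had 57.9 FPKM in clf-28 roots and 25.3 in wt roots, 8.64 in clf-28 leaves and 0.0257 in wt leaves, 1.18 in clf-28 flowers and 0.0139 in wt flowers, and 1.37 in clf-28 siliques and 0.0663 in wt siliques. It was thus at 1 FPKM or more in all 4 clf-28 organs, which no member was, and above every member in clf-28 leaves.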

How the data were processed

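Gene-level FPKM values with a lower and an upper bound (also FPKM) and a status of unit other, the authors' quantification flag, were used as deposited, per the file headers. The submitters' processing notes name TopHat, Cufflinks and TAIR10; whether libraries were scaled to each other, and versions, are not given in the sources used here. A value was usable when its status was OK. Differences are log2(FPKM + 1) in clf-28 minus wt, which understates the change of low genes, and a gene counted as measured in an organ with 1 FPKM or more in at least 1 of its libraries. With 1 library per group, genes were named by rules of size: 2-fold, or 1 FPKM.

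Members and lists were chosen with earlier results of these data known. The rule for named genes took the highest members in wt roots, the most different in roots, the highest in each other clf-28 organ, list members, neighbours and genes at the edge of the choice; examples of each role, and AGL17's other values, were chosen after values were seen. Symbols and upstream sequences came from RefSeq TAIR10.1, which held 145 members by locus, each overlapping the deposited TAIR10 locus; 67 had a symbol and 5 were merged loci. Scripts ran in Python 3.11.15 with numpy 2.4.6, pandas 2.3.3 and matplotlib 3.10.9 and were tested on simulated data. Read counts were not used, so depth is unknown and no counting interval is given. For 2 members that this rule would name, no values are reported here.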

Additional observations from a re-analysis of the deposited data

How the results depend on the processing

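No paired analysis was possible because, within an organ, the groups share a single replicate number and no result comes from a test; pairs over the 4 organs were not tested. No replicate could be left out. A 4-fold rule of size left 1 member lower and 3 higher in clf-28 roots. The rule on the clf-28 columns, added after seeing the data, gave 2 lower and 40 higher. With 2 FPKM as the level of presence, 5 members were present in clf-28 leaves, 1 in flowers and 15 in siliques. With 0.5 FPKM, 50 were present in leaves and 18 in flowers. Holding the other wt organs below 0.5 FPKM gave 10 in leaves and 1 in flowers. The cause was not tested beyond what each limit fixes by its construction. Pseudocounts of 0.1 and 5, scaling libraries to the same median (factors 0.886 to 1.17), lists of 100 and 300 genes, no status filter and no merged loci each gave counts in shares within 1.5 times those reported, and the median root difference ran from 0.02 to 0.10 under the planned settings. Levels below 1 FPKM rest on few reads, and single values there limit what can be read from percents of the root level.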
